A study of Drosophila melanogaster with 2 samples.

Results

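Promoters and gene bodies of 39 Polycomb, trithorax and chromatin remodeller genes were examined for binding of the CG9932 protein in Drosophila melanogaster embryos. The genes are a list of named subunits and cofactors, found by symbol, or for calypso by a synonym, among 13945 protein-coding genes of the 6 chromosome arms. A gene was called bound when the summit of a peak of the conservative set lay within 500 bp of any of its transcription start sites (TSS). By that rule 20 of the 39 genes were bound. The material was whole embryos of 8 to 24 h from transgenic flies that make CG9932 (FBgn0262160) as a fusion with eGFP. This age comes from the source label, while a separate age field holds a far larger number of hours. Chromatin was sonicated to 200 to 800 bp and recovered with an antibody against GFP, and the recovered DNA was sequenced (ChIP-seq). There were 2 samples, biological replicates 1 and 2 of 1 group, with no statement on whether they came from separate collections. Whole embryos mix all cell types, so a peak does not say in which cells the protein was bound, and the tagged transgene stands in for the protein without a tag. No control sample was analysed here, no condition was compared and no test was run. The conservative set, made by the authors from both replicates, held 6790 peaks on the arms with a median signal of 161. Signal is the value of the authors' peak caller for a peak, used here only to describe and rank peaks within a list. Read counts are not part of the lists, and the depth behind each peak is unknown.

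Polycomb group proteins keep developmental genes such as the Hox genes silent, and trithorax group proteins keep them active, after the factors that first set those states in the early embryo are gone. Polycomb repressive complex 2 (PRC2) places the H3K27me3 mark, complex 1 (PRC1) binds that mark and compacts chromatin, and the Pho repressive complex (PhoRC) brings both to DNA. Trithorax proteins methylate histone H3 at other lysines, and remodellers use ATP to slide, evict or exchange nucleosomes.

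The sequences around 4 promoter summits are shown, those of the 3 members with the strongest peaks that lie outside exons and that of Pc, the gene that gave the group its name. ph-p is chrX:2137265-2137415, brm is chr3L:15982929-15983079, Ino80 is chr3R:19403191-19403341 and Pc is chr3L:21318021-21318156. All 4 are on the minus strand, written 5′ to 3′ on the strand of the gene, from the RefSeq genome in dm6 coordinates. The summit is base 76 of each. Capitals mark matches to CTATCGA, the DRE sequence TATCGATA, Motif 1 GGTCACAC or GAGAGAG on either strand.
ph-p: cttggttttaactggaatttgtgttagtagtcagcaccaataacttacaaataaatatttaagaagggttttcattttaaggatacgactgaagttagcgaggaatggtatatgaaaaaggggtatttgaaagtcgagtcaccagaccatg
brm: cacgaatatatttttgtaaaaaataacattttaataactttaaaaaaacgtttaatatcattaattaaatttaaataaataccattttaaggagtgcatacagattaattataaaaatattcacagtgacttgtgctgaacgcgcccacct
Ino80: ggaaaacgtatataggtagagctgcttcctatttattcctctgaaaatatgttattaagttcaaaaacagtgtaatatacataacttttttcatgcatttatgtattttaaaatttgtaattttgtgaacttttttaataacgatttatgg
Pc: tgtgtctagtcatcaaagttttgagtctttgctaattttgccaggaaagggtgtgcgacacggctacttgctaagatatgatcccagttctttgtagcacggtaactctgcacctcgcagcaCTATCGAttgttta
The ph-p, brm and Ino80 stretches hold no match, and Pc holds 1 match to CTATCGA, 50 bp from the summit. In the 201 bp around the summit the share of G and C was 26.4% for Ino80, 30.8% for brm, 37.3% for ph-p and 42.8% for Pc.

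The 39 genes were bound at 51.3% (20 genes), against 29.9% of all protein-coding genes (4163 of 13945). Remodellers had 9 of 13 genes bound and PRC2 had 4 of 7. PRC1 had 2 of 7, PhoRC 1 of 3, and the trithorax methylases with their cofactors 2 of 5. The Polycomb deubiquitinase PR-DUB had 1 of 2 genes bound, and the recruiters and cofactors lolal and corto 1 of 2. In the conservative set the share of PRC1 genes (28.6%) was close to that of all genes. The share of remodeller genes (69.2%) was the highest of the 7 classes in that set, but not in the optimal set or in the replicates' own sets. Classes of 2 to 13 genes give coarse shares. Gene length differed between the lists, with a median of 7137 bp over the 39 genes against 2166 bp over all genes. Among genes of at most 2500 bp, 5 of 8 members were bound against 22.2% of all genes, and between 2500 and 5000 bp 4 of 8 against 38%. Between 5000 and 10000 bp the counts were 5 of 11 members against 41.4% of all genes, and between 10000 and 20000 bp 3 of 7 against 41.2%. Above 20000 bp 3 of 5 members were bound, against 39% of all genes.

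**Figure D1:**
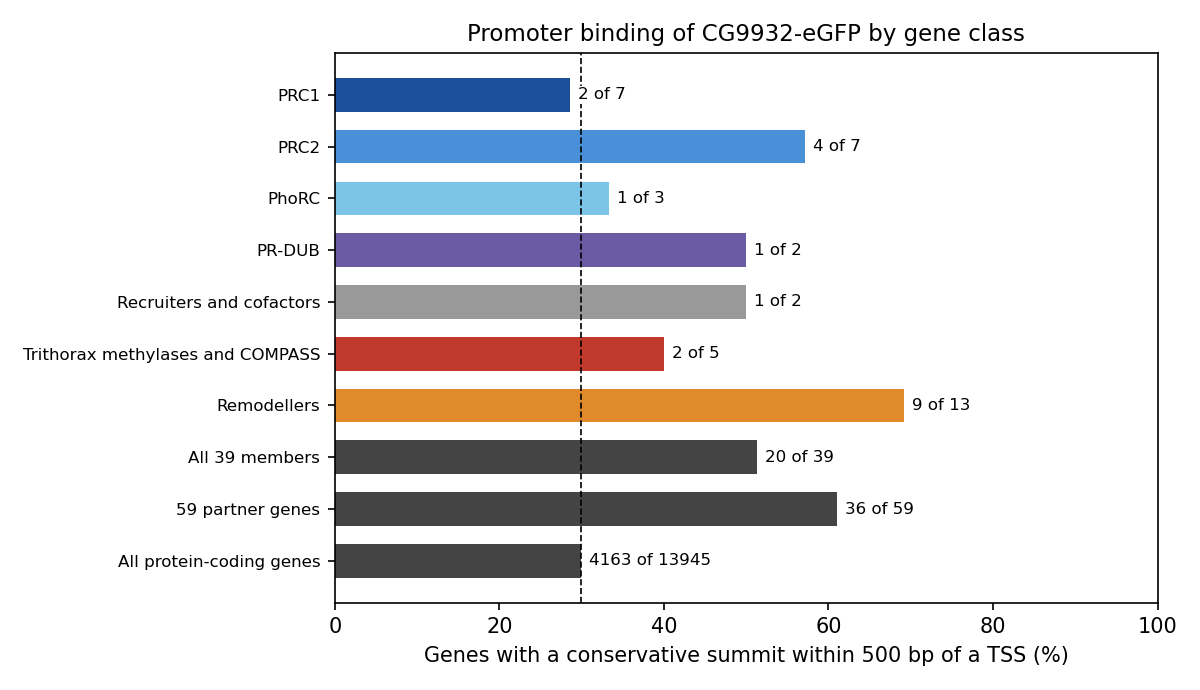
Share of genes (percent, horizontal axis) with a conservative summit within 500 bp of a TSS. Bars show the 7 classes, the 39 genes, 59 partner genes described below and all protein-coding genes, with counts beside them. A dashed line marks the share of all protein-coding genes. Remodellers reach 69.2% and PRC1 28.6%, against 29.9% of all protein-coding genes.

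The share was also above that of all genes in the other peak lists. In the optimal set, a longer list from both replicates, 24 of 39 genes were bound (61.5%) against 31.4% of all genes. The own set of replicate 1 gave 26 genes (66.7%) against 30.1%, and that of replicate 2 gave 17 genes (43.6%) against 23.9%. In the own sets of both replicates 17 genes were bound (43.6%), against 22.9% of all genes. With a promoter of 200 bp on either side of the TSS, 19 of 39 genes were bound (48.7%) against 23.2%. The 4 genes that the optimal set added were ph-d, Caf1-55, Jarid2 and dom. The order of the classes changed with the list. In the optimal set and in replicate 1's own set PRC2 had 85.7% of its genes bound, remodellers 76.9% and PRC1 42.9%. In replicate 2's own set, and in the own sets of both replicates, PRC2 had 57.1%, remodellers 53.8% and PRC1 28.6%.

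Over the 20 bound genes the strongest promoter peak had a median signal of 245, against 264 over all 4163 bound genes. Of the 20, 14 were above the median of the set, 7 were above its upper quartile of 309 and 2 below its lower quartile of 102. The signals fell into a wide range, from 85.7 for ash2 to 3163 for ph-p. ph-p, brm, Ino80 and E(z) stood above 1000, and the other 16 lay at 564 or lower. Within 200 bp of the 20 summits, the own set of replicate 1 held a summit in 19 cases and the own set of replicate 2 in 17. The summit in replicate 1's list was displaced by a median of 9 bp and at most 34 bp. In replicate 2's list it was displaced by a median of 14 bp and at most 66 bp.

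**Figure D2:**
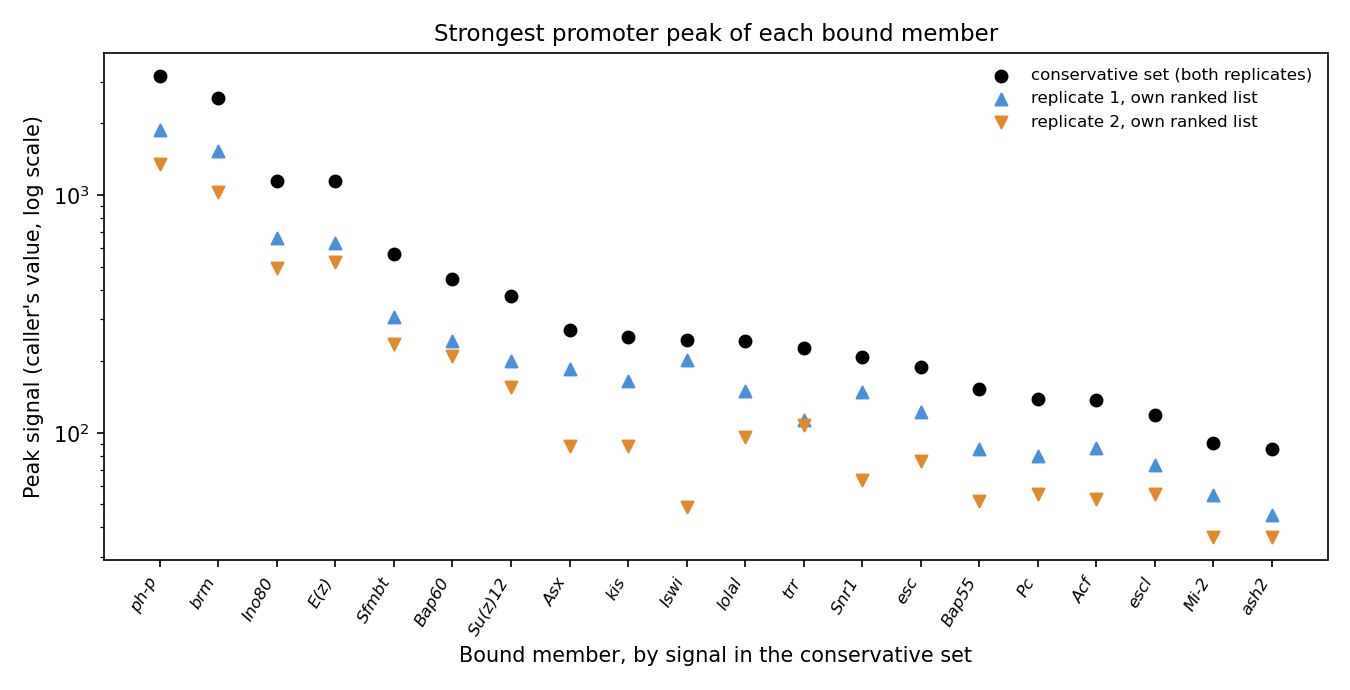
Signal of the strongest promoter peak (log scale) of each of the 20 bound genes, in the conservative set (circles) and at the same summit in the ranked lists of replicate 1 (upward triangles) and replicate 2 (downward triangles); there are no error bars, and signals of different lists share no scale. ph-p and brm are the highest in every list. Iswi differs most in rank between the replicates, with 203 at rank 1542 in replicate 1 and 48.7 at rank 5301 in replicate 2.

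In PRC1, ph-p and Pc were the bound genes. ph-p (FBgn0004861), which encodes a polyhomeotic protein that forms chains through its SAM domain, held 3 promoter summits. Its strongest peak (X, 2137166 to 2137583, dm6) had a signal of 3163 and ranked 17 of the 6829 peaks of the set, those off the arms included. It had a signal of 1885 at rank 19 in the list of replicate 1 and of 1345 at rank 20 in that of replicate 2. This summit lay in an intron, 1031 bp from the outermost start and at -485 bp of an internal TSS (minus means upstream), just inside the limit of 500 bp. A second peak of signal 1282 (723 in replicate 1, 614 in replicate 2) lay in the 5′ UTR, 453 bp downstream of the outermost TSS. The weakest of the 3, of signal 183, lay 54 bp downstream of another TSS, and intron peaks of signal 344 and 85.4 followed. All 5 summits lay within 3895 bp of the outermost start of this gene of 12162 bp.

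Pc (FBgn0003042), whose chromodomain reads H3K27me3, had a single promoter peak 61 bp upstream of its TSS. Its signal was 139 (80.0 in replicate 1, 55.4 in replicate 2) at rank 3910, below the median of the set. It was in the own sets of both replicates.

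The other 5 PRC1 genes were unbound. ph-d, the tandem copy of ph-p, was bound in the optimal set and in the own set of replicate 1, with a signal of 127 at 93 bp downstream of a TSS. The list of replicate 1 gave it 98.3 and that of replicate 2 gave 32, and its nearest conservative summit lay at -758 bp with a signal of 628. Psc, which encodes a RING finger protein that compacts nucleosomes, had intron summits of signal 129 and 70.5 instead. Its paralogue Su(z)2 had summits of signal 90.8, 76.2 and 3.33 toward the end of the gene. The weakest had no peak of replicate 1 within 200 bp and shared its replicate 2 peak with the strongest. Sce, the Ring protein that ubiquitinates histone H2A, and Scm, an MBT-repeat protein that links PRC1 with PhoRC, had no summit of the conservative set in the promoter or the gene. The strongest peak at the Scm promoter in the ranked list had a signal of 79.4 and a score of 66, against a lowest score of 830 in the set. The score runs up to 1000 and is higher where the rank of a peak repeats better.

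In PRC2, the enzyme and 3 of its core partners were bound. E(z) (FBgn0000629), the methyltransferase that places H3K27me3, had a peak of signal 1148 at rank 200, with 627 in replicate 1 and 523 in replicate 2. Its summit lay 52 bp downstream of the TSS, in the 5′ UTR, and 68 bp upstream of a TSS of Cnep1r2. Su(z)12, which the enzyme needs for its activity, had a signal of 376 (200 in replicate 1, 156 in replicate 2) at 80 bp downstream of its TSS. The WD-repeat subunits esc and escl, which can stand in for each other, both had weaker peaks close to the TSS. esc had a signal of 189 (123 in replicate 1, 76.2 in replicate 2) at -40 bp. escl had a signal of 119 (73.3 in replicate 1, 55.0 in replicate 2) at -53 bp. All 4 were in the own sets of both replicates.

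Of the remaining PRC2 genes, Caf1-55, a histone-binding subunit that several chromatin complexes share, and Jarid2, an accessory subunit, were bound in the optimal set and the own set of replicate 1 only. At the Caf1-55 promoter the list of replicate 1 had a signal of 81.7 and that of replicate 2 had 26.1. Jarid2 had 79.8 in replicate 1, and no peak of replicate 2's list lay at its promoter. Pcl, another accessory subunit, had no peak at its promoter even in the ranked list of 120711 peaks.

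In PhoRC, Sfmbt was the bound gene. Sfmbt (FBgn0032475), whose MBT repeats bind methylated histone tails, had a peak of signal 564 at rank 720 (306 in replicate 1, 235 in replicate 2). The summit lay 86 bp upstream of its TSS, and a second summit of signal 265 lay at -291 bp. CG5439, read away from the same stretch, had its TSS 74 bp from the second summit. pho and phol, which encode the zinc finger proteins that bind DNA for the complex, had no promoter summit in any of the 4 sets. pho lies on chromosome 4, where the conservative set held 1 peak for 80 genes. phol had summits of signal 69.5 and 28.8 in coding sequence, and a promoter peak of signal 73.6 and score 666 in the ranked list. Neither coding summit was in the own set of replicate 2, and both had the same nearest peak in its list. The weaker one had no peak of replicate 1 within 200 bp.

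Asx, the PR-DUB subunit that activates the deubiquitinase, had a peak of signal 269 (185 in replicate 1, 88.0 in replicate 2) at -59 bp. calypso, annotated as caly, is the deubiquitinase itself and was unbound, with its nearest summit of signal 305 at -594 bp, outside the limit. lolal, a BTB-domain protein that partners the GAGA factor, had a peak of signal 243 (150 in replicate 1, 95.8 in replicate 2) at an internal TSS. A second summit of signal 98.0 lay at -57 bp of its outermost TSS. corto, a chromodomain protein that interacts with both groups, had 1 summit of signal 102 in its 3′ UTR and none at its promoter.

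Among the trithorax methylases and their cofactors, trr and ash2 were bound, and neither was the gene closest to its summit. trr, an H3K4 methyltransferase that acts at enhancers, had a signal of 228 (113 in replicate 1, 108 in replicate 2) at -186 bp, with the TSS of mRpL16 120 bp away. ash2, a subunit common to the COMPASS methylases, had the weakest peak of the 20, with a signal of 85.7 at -70 bp, and the TSS of puf lay 12 bp from it. That ash2 summit was in the own set of neither replicate, with 45.3 in the list of replicate 1 and 36.5 in that of replicate 2. Away from that summit, ash2 had a promoter peak of signal 90.2 in the optimal set and one of 63.2 in the own set of replicate 1. The class count moved with the list, since replicate 1's own set bound 4 of 5 genes and replicate 2's own set 1 of 5. ash1, a histone methyltransferase of the group, had a signal of 68.7 in the own set of replicate 1 and 16.4 in the ranked list of replicate 2. The strongest peak of the whole conservative set, of signal 7758, lay 8137 bp downstream of the TSS of ash1, just past the end of this gene of 7983 bp. Utx, the H3K27 demethylase, had a promoter peak of signal 175 in the own set of replicate 1 and none in the ranked list made from both replicates.

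Remodeller genes held the second strongest of the 20 promoter peaks. brm (FBgn0000212), the ATPase of the BAP and PBAP complexes, had a peak of signal 2559 (3L, 15982817 to 15983187) at rank 29. Its signal was 1534 at rank 28 in replicate 1 and 1032 at rank 36 in replicate 2. The summit lay 135 bp upstream of brm and 131 bp upstream of Arl1, an Arf-like GTPase gene read the other way. The summit was thus nearly as far from one start as from the other.

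Other subunits of the same complexes had weaker peaks. Bap60 had a signal of 442 (244 in replicate 1, 211 in replicate 2) at -106 bp, with the TSS of CG12096 10 bp from the summit. A second promoter summit of signal 9.20 had no peak of replicate 1 within 200 bp and shared the replicate 2 peak of the first. Snr1 had a signal of 208 (149 in replicate 1, 63.5 in replicate 2) at -41 bp. Bap55, an actin-related protein gene, had a signal of 153 (85.5 in replicate 1, 51.9 in replicate 2) at -41 bp, 28 bp from the TSS of Lhr, and was not in the own set of replicate 2. The scaffold gene mor and osa, which marks the BAP form, were unbound in the conservative set although the ranked list held peaks at both promoters.

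Ino80 (FBgn0289122), the ATPase of the complex of that name, had a peak of signal 1150 (3R, 19403058 to 19403496) at rank 198. It had 661 at rank 201 in replicate 1 and 493 at rank 205 in replicate 2, and the summit lay at -113 bp and 189 bp upstream of Aptx. The ranks of ph-p, brm and Ino80 thus differed little between the replicates' lists. Iswi, the ATPase of NURF, ACF and CHRAC, had a signal of 247 at -32 bp. Its rank differed most, with 203 at rank 1542 in replicate 1 and 48.7 at rank 5301 in replicate 2.

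kis, a CHD-type ATPase gene of the trithorax group, had a signal of 254 (165 in replicate 1, 87.9 in replicate 2) at -88 bp. Acf, the ACF subunit that spaces nucleosomes with Iswi, had a signal of 137 (86.6 in replicate 1, 52.5 in replicate 2) at -201 bp, with Mccc1 closer at 52 bp. Mi-2, the ATPase of NuRD, had a weak promoter peak of signal 90.8 at -102 bp (55.0 in replicate 1, 36.3 in replicate 2), 14 bp from the TSS of Prp3. E(bx), the largest NURF subunit, had no peak at its promoter in the ranked list. dom, the ATPase of the Tip60 complex, was bound in the optimal set and the own set of replicate 1, and its nearest conservative summit lay 543 bp downstream with a signal of 105, just outside the limit.

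**Figure D3:**
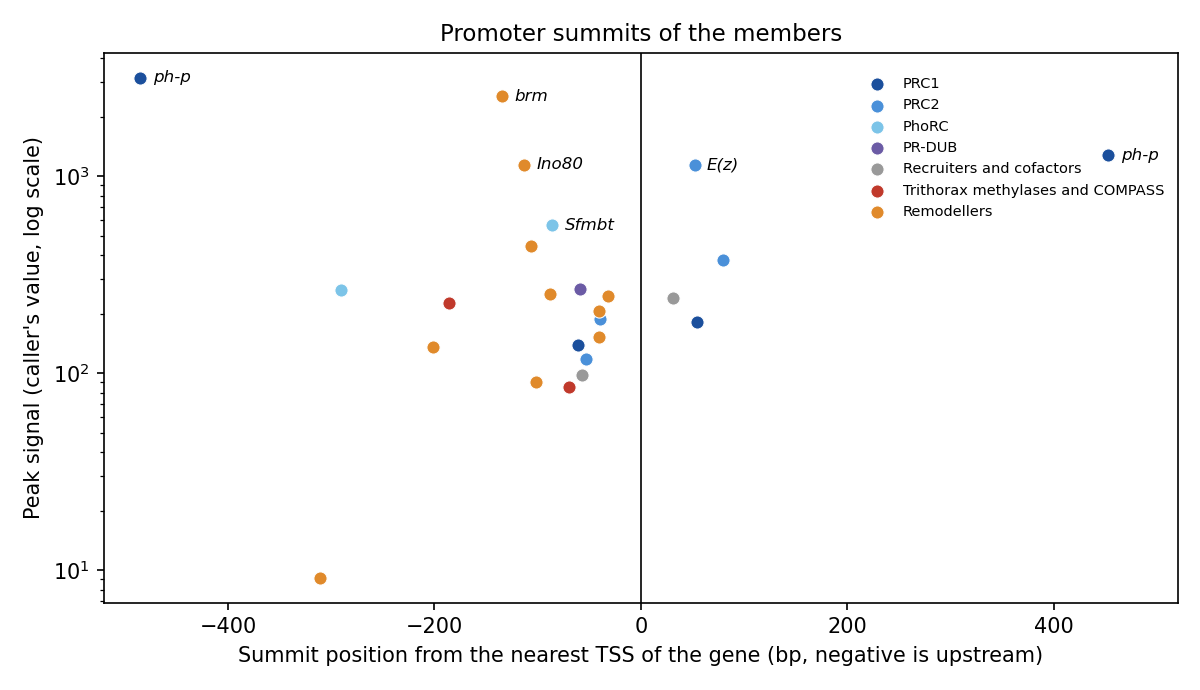
Position of the 25 promoter summits of the bound genes from the nearest TSS of the gene (bp, negative is upstream) against peak signal (log scale), coloured by class. Most points lie within 200 bp upstream of the TSS, while the ph-p summits at -485 and 453 bp sit near the limits of the window.

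Of the 20 strongest promoter summits, 17 lay upstream of the TSS and 3 downstream (85.0% upstream, against 88.0% over all bound genes). The median position was -65.5 bp, against -102 bp over all bound genes. Within 100 bp of the TSS lay 13 summits and within 200 bp lay 18. The 3 summits downstream were those of E(z), Su(z)12 and lolal, all in a 5′ UTR. A TSS of another protein-coding gene lay within 500 bp of the summit for 14 of the 20 genes (70.0%), against 2290 of the 4163 bound genes (55.0%). For 8 of the 9 bound remodeller genes the promoter was shared in this way, and kis was the exception. The member itself was the nearest gene in 13 of 20 cases, and the peaks cannot be assigned to 1 gene of such a pair from these data.

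Some of the genes carried summits in the gene body. A summit lay in the gene for 14 of 39 genes (35.9%), against 16.4% of all protein-coding genes. Promoter summits downstream of the gene's start count here too, for members and for all genes. For E(z), Su(z)12 and lolal the only summit in the gene was the promoter summit already described. Of the 5 summits in ph-p, 3 were promoter summits. E(z) and lolal are among the members counted below between 2500 and 5000 bp. The 33 summits came to 0.860 per 10 kb, against 0.427 per 10 kb over all genes. The weak neighbouring summits of phol and Su(z)2 were counted separately. Over all genes the share with a summit grew with length, and the members stood above it in some length ranges and below it in others. Of genes of at most 2500 bp, 0 of 8 members held a summit against 5% of all genes, and between 2500 and 5000 bp 3 of 8 members against 14.5%. Between 5000 and 10000 bp the counts were 2 of 11 members against 30.3%, and between 10000 and 20000 bp 5 of 7 against 42.7%. Above 20000 bp 4 of 5 members held one, against 62.8% of all genes. With the promoter included, 27 of 39 genes had a summit (69.2%), against 35.1% of all genes. In 7 genes, Psc, Su(z)2, phol, corto, trx, osa and dom, the summits lay in the gene but not at the promoter. Of these, trx, osa and dom had a summit in the gene in the own sets of both replicates. Psc, Su(z)2 and phol had one in the own set of replicate 1 only, and corto in neither.

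Among summits in a gene but farther than 500 bp from any of its TSS, the strongest were those of osa (FBgn0261885) and Mi-2 (FBgn0262519). osa held intron summits of signal 1537 (835 in replicate 1, 706 in replicate 2) and 1435 (822 in replicate 1, 578 in replicate 2). They lay 17762 and 13950 bp downstream of its TSS, at ranks 101 and 116 of the set. Mi-2 held an intron summit of signal 1114 (621 in replicate 1, 479 in replicate 2), 6955 bp from its start and at rank 212. Within the set this peak stood far above the one at the Mi-2 promoter, and the other 4 intron summits of Mi-2 had signals of 80.6 to 126. Among those 4, the summit of signal 123 lay 49 bp upstream of a TSS of another gene. trx (FBgn0003862), the H3K4 methyltransferase for which the group is named, held intron summits of signal 271 and 89.5, the first with 164 in replicate 1 and 103 in replicate 2. kis held 5 intron summits of signal 102 to 270.

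**Figure D4:**
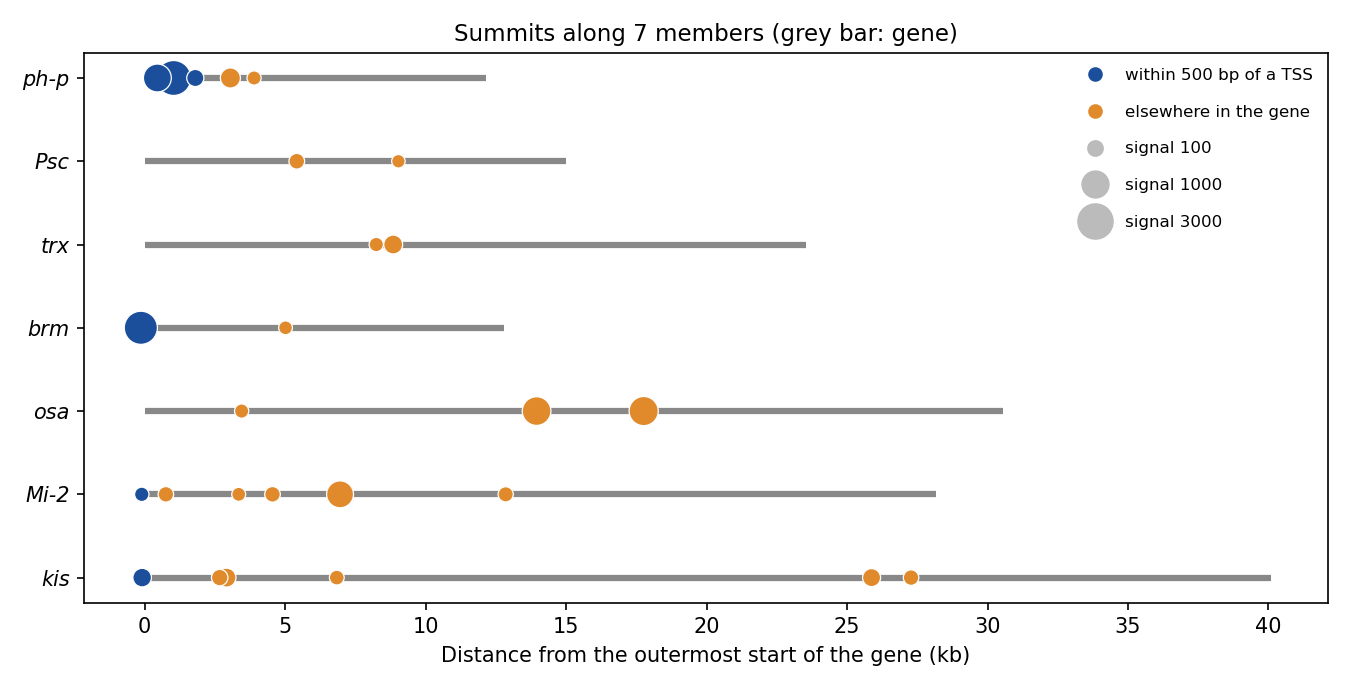
Conservative summits along 7 of the genes (grey bars), by distance from the outermost start (kb); circle area grows with signal, blue circles lie within 500 bp of a TSS and orange circles elsewhere in the gene. The largest circles of ph-p and brm are at the start of the gene, and those of osa and Mi-2 lie inside it.

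For the 19 unbound genes, the ranked list behind the conservative set showed how near they came. Of these, 4 were bound in the optimal set, 6 in the own set of replicate 1 and 0 in the own set of replicate 2. The ranked list had a promoter peak for 13 of the 19. trx, mor and osa had a score of 1000 there, past the lowest score of 830 in the set, yet these peaks were in none of the 4 sets. mor, the scaffold of the BAP complexes, had a peak (3R, 15973001 to 15973167) of signal 395 at -161 bp, with 219 in replicate 1 and 160 in replicate 2. Its summit also lay 224 bp upstream of Hel89B, an ATPase gene read the other way. osa had a ranked peak of signal 314 at -21 bp (236 in replicate 1, 78.7 in replicate 2), and trx one of signal 113 at -58 bp (49.5 in replicate 1, 58.3 in replicate 2). Over all arms 6980 ranked peaks reached that score and 6790 of them made up the set. The 190 left out had a median signal of 176, and none had a summit of the set within 500 bp. No source used here says how they were left out. Counting every ranked peak past the score, 23 of 39 genes were bound, against 30.5% of all genes.

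**Figure D5:**
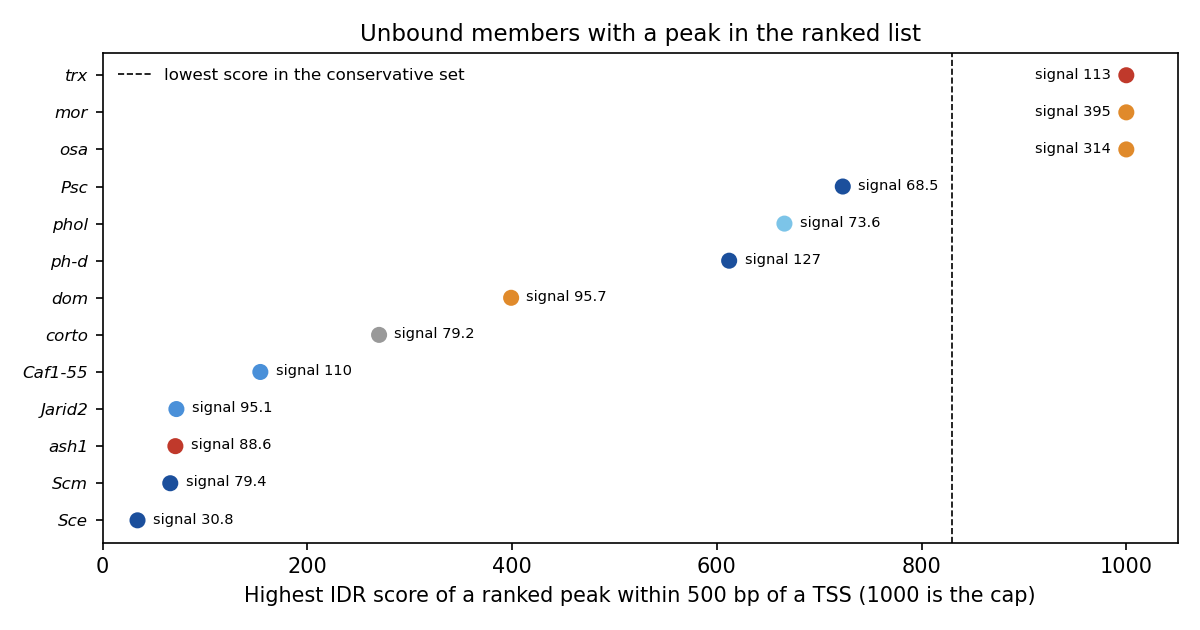
Highest score (horizontal axis, up to 1000) of a promoter peak in the ranked list for the 13 unbound genes that had one, with the signal of that peak beside each point and a dashed line at the lowest score of the conservative set. trx, mor and osa lie at 1000, past the line at 830, and Psc is the next at 723.

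Partner genes, 59 further genes, were read by the same rule. They include subunits and cofactors of the same complexes, but also 7 other SNF2-type ATPase genes and genes of other complexes, such as the Mediator gene skd. At the promoter 36 of 59 were bound (61.0%), against the 29.9% of all genes, with a median signal of 236 and a median position of -67.5 bp. With a promoter of 200 bp, 27 of 59 partners were bound (45.8%), against 48.7% of members and 23.2% of all genes. In the own sets of both replicates the partners also had 27 of 59, against 43.6% of members and 22.9% of all genes. The NuRD partners had 4 of 5 bound, the trithorax and COMPASS partners 11 of 15, and the Polycomb partners 6 of 9. The partners of the NURF, ACF and CHRAC complexes had 3 of 4, those of BAP and PBAP 3 of 5 and other SNF2-type ATPases 4 of 7. With a promoter of 200 bp the other SNF2-type ATPases had 1 of 7. The partners of the Tip60, SWR1 and INO80 complexes had 5 of 14, the lowest share of these lists within 500 bp. pont, of that list, was unbound although the ranked list held a promoter peak of signal 1150 and score 1000 (671 in replicate 1, 487 in replicate 2). The same held for Kdm2, at a signal of 471, and for Hel89B, at the peak of signal 395 shared with mor. Counting every ranked peak past the score, 39 of 59 partners were bound, against 30.5% of all genes. Among partners bound in the conservative set, the strongest promoter peak was that of Rbbp5, a COMPASS subunit, with a signal of 906 at -313 bp. The TSS of eRF1 was closer to that summit, at 100 bp. Next was Gas41, a Tip60 complex subunit, with 840 at -105 bp, and SA1 lay 109 bp from its summit. Trl, which encodes the GAGA factor, followed with 801 at 111 bp, the Mediator gene skd with 768 at -434 bp and the remodeller gene Chd1 with 693 at -294 bp. Pdss2 was closer to the skd summit, at 47 bp, and Bem46 to the Chd1 summit, at 99 bp. The partner itself was the nearest gene for 24 of the 36 bound partners. Away from its promoters Trl held a stronger intron peak of signal 2926 at rank 21 (1717 in replicate 1, 1221 in replicate 2), named here after its value was seen. Arp6, Arp8 and Bap111 were the first unbound partners in alphabetical order. CG9932 itself had a promoter peak of signal 304 at -150 bp (154 in replicate 1, 134 in replicate 2) and 5 summits in its gene.

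Short sequences known from fly promoters and Polycomb sites were searched on both strands in the 201 bp around the summit. CTATCGA, which overlaps DRE sequences and was chosen on these data for the highest ratio of its length between all summits and their flanks (8.14% and 1.77%, with a constant added to both counts), lay at 5 of 20 members' summits (25%), those of Pc, Asx, trr, Bap55 and Iswi. It lay at 10.5% of the starts of all genes. DRE (TATCGATA), bound by the DREF factor, lay at 3 of 20 (15%), against 5.43% of all summits and 7.84% of all starts. Motif 1 (GGTCACAC), a core promoter element, lay at 2 of 20 (10%), against 3.17% of summits and 6.76% of starts. GAGAGAG lay at 0 of 20, against 4.09% of summits and 3.69% of starts. GCCAT, the core that Pho binds, lay at 5 of 20 (25%), against 31.1% of summits and 31.8% of starts. The 20 were all promoter summits, whereas only 3467 of the 6790 summits were, and the windows at starts were not centred on summits. These sequences were not counted over promoter summits alone, so the shares do not compare like with like. None of these sequences lay within 100 bp of the summits of ph-p, brm, Ino80 or E(z), the 4 strongest. Those 4 summits had a median of 30.6% G and C, against 33.3% over all 199 promoter summits with a signal over 1000 and 38.3% over all promoter summits.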

How the data were processed

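The authors deposited peak lists on dm6 from ChIP-seq of CG9932-eGFP embryos: a ranked list and a thresholded set for each replicate, and conservative and optimal sets with ranked lists from both replicates. Of the 8 lists, 7 were used. The deposited signal column is the peak caller's value. The deposited score grows as the irreproducible discovery rate (IDR) falls, and the deposited −log10 of the global IDR puts the lowest score in the set, 830, at an IDR of 0.01. Neither the aligner nor the peak caller and its settings are named in the sources used here. A further 30 value columns of the series' lists were not used.

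Summits were counted from 1 and set against the TSS of every transcript of protein-coding genes on 6 arms (Ensembl release 115, BDGP6.54, in dm6 coordinates). A summit was in a gene when it lay between the first and last annotated base. Of the members, 38 matched by symbol and 1, calypso, by a synonym. Ranks are by signal within a whole list, with peaks off the 6 arms included. A peak in a replicate's list within 200 bp of the summit counted as the same.

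The members and lists were chosen with earlier results of these data known, so lists are described by counts beside all protein-coding genes, without a test. With 2 replicates no SD is given. Named were all members, the 5 partner genes of highest promoter signal, the 3 unbound partners that come first alphabetically and CG9932. Also named were pont, Kdm2 and Hel89B, unbound partners with a ranked promoter peak past the score, and genes sharing a promoter summit with a member or a named partner. Alternatives were the optimal set, each replicate's own set, stronger peaks, peak centres, other promoter widths, outermost starts and motif windows. The promoter call and the distance to the TSS were tested on planted summits, and the other steps were not tested in this way. Work used Python 3.11.15, numpy 2.4.6, pandas 2.3.3 and matplotlib 3.10.9.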

Additional observations from a re-analysis of the deposited data

How the results depend on the processing

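The count of members bound at a promoter stayed within 1.5 times its value of 20 under every alternative run. With a promoter of 1000 bp it was 23, against 33.5% of all genes, with outermost starts only it was 20 against 27.5%, and with only the peaks above the median signal it was 14 against 21.6%. Leaving out a replicate, by taking the other's own set, gave 1 to 4 bound genes among the trithorax methylases and cofactors. The median rank of the members bound in each such set was 40.8% to 53.6% of the list, against 33.0% in the conservative set. These medians are over different members, 26 in replicate 1's own set, 17 in replicate 2's and 20 in the conservative set. With only the peaks above the median signal, 1 PRC1 gene and 1 gene of the trithorax methylases stayed bound, and 8 members had a summit in the gene. A promoter of 1000 bp made both PR-DUB genes bound (2). Adding 2000 bp upstream to the gene gave 29 members with a summit. Windows of 50 bp on either side of the summit left 3 members with CTATCGA, 1 with Motif 1 and 3 with GCCAT. The Pc summit lay at -68 bp without replicate 2 and at 5 bp, downstream of the TSS, without replicate 1. With the centre of the peak as its position, an alternative chosen after seeing the data, ph-p's strongest promoter peak became the one at 466 bp. The count over ranked peaks past the score was also chosen after seeing the data. The summits of Su(z)12, Snr1 and Bap60 moved without a change of side. A further 72 values of single genes and 87 counts and medians were near their main value. Positions were compared as distances to the nearest TSS, so a different summit could count as near. This was so for ash2, at -47 bp in the optimal set and -27 bp in replicate 1's own set, against -70 bp. No paired analysis was possible because there is 1 group and no test. Without read counts, weak peaks cannot be given a counting error.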
